A study of Mus musculus with 4 samples.

Results

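Regulatory CD4+ T cells (Treg cells) of orthotopic CT26 tumors were taken as the cells in the cluster that the authors named CD4+_Treg, and they numbered 567 of 17674 cells. Of these, 305 came from Cyp51-KO tumors and 262 from sg-Ctrl tumors. CT26 is a mouse colorectal cancer line. Before orthotopic injection into male BALB/c mice it had received, by lentivirus with a blue fluorescent tag (TagBFP), a guide against Cyp51 or a control guide, and the tagged cells had been sorted. The edit was therefore in the tumor cells, and the Treg cells were unedited cells of the host in both groups. Tumors were taken at day 26, pooled over 9 tumors (Cyp51-KO) and 12 tumors (sg-Ctrl). Of the mix that was sequenced, 50% were sorted leukocytes (CD45+), 40% were leukocytes sorted further for CD3, and 10% were sorted tumor cells (CD45- BFP+), run on 5’ droplet single-cell RNA sequencing.

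Treg cells are the CD4+ T cells that restrain other T cells. Their fate depends on the transcription factor Foxp3. They carry Il2ra, the alpha chain of the receptor for the T cell growth factor interleukin 2, and Ctla4, an inhibitory receptor that competes for costimulatory ligands on antigen-presenting cells. In tumors the balance between Treg cells and CD8+ cytotoxic T cells, or helper cells of the Th1 and Th17 types, is commonly used to describe how far the T cell compartment is held back. Th1 cells support cytotoxic responses through interferon gamma, and Th17 cells secrete interleukin 17.

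The table used here holds, for each cell, its cluster, its group, its number of unique molecular identifiers (UMIs, each a captured RNA molecule), how many genes were detected, and what percentage of UMIs was mitochondrial. It holds no level of any gene, so the cluster name could not be checked against Foxp3, Il2ra and Ctla4 in these cells. All of these markers, with Ikzf2, Tnfrsf4, Tnfrsf18 and Icos, are among the leading genes the study lists for the cluster, and Cd8a and Cd8b1 are not on that list. The list holds only the leading genes of each cluster, so absence from it says little about CD8+ cells in the cluster. It was drawn from the clustered cells themselves and is no separate check. The cluster named Th17 is led in the same list by gamma-delta T cell genes besides Il17a, so ratios of Treg cells to it may not be ratios to CD4+ cells alone.

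Although 2 libraries per group are listed, cells were tied to a group and not to a library, so each group was 1 set of cells. The groups were therefore not tested against each other. Intervals are 95% and cover counting error only, not the spread between tumors, sorts or libraries. Within a group, 0 cell barcodes occurred more than once, and 98 barcodes occurred in both groups, of which 0 were Treg cells in both. Of the Treg barcodes, 1 of Cyp51-KO and 3 of sg-Ctrl tumors occurred in the other group under another cluster name. The median over all cells was 6508.5 UMIs in Cyp51-KO and 7822.5 UMIs in the sg-Ctrl group.

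Treg cells made up nearly the same part of the T cells in both groups. They were 305 of 4472 T cells in Cyp51-KO tumors, 6.82% (exact binomial interval 6.10 to 7.60%), and 262 of 4048 T cells in the sg-Ctrl group, 6.47% (5.73 to 7.27%). T cells here are the 8 clusters of Treg, Th1-like, Th17, proliferating and the 4 kinds of CD8+ T cells. The intervals overlapped, and the log2 ratio of the odds, Cyp51-KO over sg-Ctrl, was 0.081 (-0.17 to 0.33). Among the 8 clusters, only the Th1-like log2 ratio was nearer to 0, at 0.020. The Temra CD8+ cluster was nearly level with Treg cells, at 0.083 (-0.053 to 0.22). The effector CD8+ cluster stood at 0.88 and the exhausted CD8+ cluster at -0.66 on the same scale. Pooled over UMI quartiles common to all T cells, the Treg log2 ratio turned to -0.48. From the lowest quartile to the highest it was -0.21, -1.01, 0.26 and -0.63. Only the second (-1.49 to -0.54) had an interval wholly on the negative side.

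Among the cells of the Treg, Th1-like and Th17 clusters as a whole, Treg cells were 26.1% in Cyp51-KO tumors (23.6 to 28.7%) and 26.3% in the sg-Ctrl group (23.5 to 29.1%). The share therefore overlapped here as well. Over all cells it was 2.91% (2.60 to 3.25%) against 3.64% (3.22 to 4.10%), with intervals that touched only near their ends and a log2 ratio of -0.34 (-0.58 to -0.088). That denominator holds the tumor cells and other non-immune cells. Over the 7903 and 6394 immune cells the shares were 3.86% and 4.10%, a log2 ratio of -0.090 (-0.34 to 0.16).

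The ratio of Treg cells to CD8+ T cells, a common measure of suppression in tumors, was close in the groups. There were 11.0 Treg cells per 100 CD8+ T cells with Cyp51-KO (9.75 to 12.4) and 9.84 in the sg-Ctrl group (8.64 to 11.2), a log2 ratio of 0.16 (-0.094 to 0.42). Put the other way, 9.08 and 10.2 CD8+ T cells stood beside each Treg cell. Pooled over the common UMI quartiles this log2 ratio too turned negative, to -0.67. From the lowest quartile to the highest it was -0.61, -1.44, 0.34 and -0.21. Only the first (-1.17 to -0.023) and the second (-1.93 to -0.96) had intervals wholly on the negative side.

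This near balance was the sum of CD8+ clusters that went opposite ways. Per 100 exhausted CD8+ T cells, which are chronically stimulated cells with inhibitory receptors such as Pdcd1, there were 31.1 Treg cells with Cyp51-KO (27.2 to 35.4) and 21.0 in the sg-Ctrl group (18.3 to 24.0). The intervals lay apart, with a log2 ratio of 0.57 (0.29 to 0.84). Per 100 effector CD8+ T cells, which are led by granzyme genes, there were 73.3 Treg cells with Cyp51-KO (63.0 to 85.2) and 123 in the sg-Ctrl group (102 to 148). These intervals lay apart in the opposite direction, at -0.75 (-1.09 to -0.40). Treg cells outnumbered effector CD8+ T cells in the sg-Ctrl group and were fewer than them in Cyp51-KO tumors. As shares of T cells, the effector and exhausted CD8+ clusters differed more between the groups than the Treg cluster did, as the log2 ratios of 0.88, -0.66 and 0.081 show.

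The other CD8+ clusters showed less. Temra cells, the largest CD8+ cluster, had 23.0 Treg cells per 100 in Cyp51-KO and 22.7 in the sg-Ctrl group, a log2 ratio of 0.016 (-0.25 to 0.29). The HSP+ cluster, which is led by heat-shock genes, held 45 and 48 cells, and its wide interval of the log2 ratio (-0.36 to 0.98) reflects these small numbers. Counted against the effector and Temra cells together, Treg cells were 17.5 and 19.2 per 100, with a log2 ratio of -0.13 (-0.40 to 0.13).

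**Figure D1:**
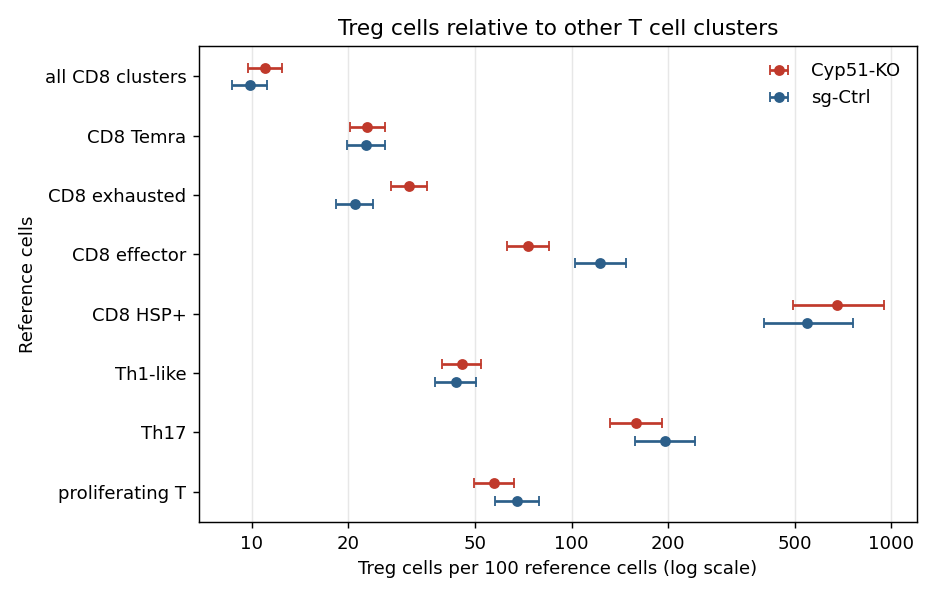
Treg cells per 100 reference cells (log scale) for all CD8+ clusters, each CD8+ cluster and 3 other T cell clusters, in Cyp51-KO (red) and sg-Ctrl (blue) tumors, with exact 95% intervals (counting error only) as bars. The bars lie apart for exhausted CD8+ T cells (31.1 against 21.0) and, the other way, for effector CD8+ T cells (73.3 against 123), and overlap elsewhere.

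Against the helper clusters the ratios of the groups overlapped. There were 45.3 Treg cells per 100 Th1-like cells with Cyp51-KO (39.5 to 52.0) and 43.5 in the sg-Ctrl group (37.5 to 50.4), a log2 ratio of 0.058 (-0.23 to 0.35), which was 0.79 within the common UMI quartiles. Per 100 cells of the Th17 cluster there were 159 Treg cells with Cyp51-KO (132 to 191) and 196 in the sg-Ctrl group (158 to 243). Treg cells thus outnumbered the Th17 cluster in both groups and were fewer than the Th1-like cells in both. The log2 ratio to the Th17 cluster was -0.30 (-0.71 to 0.11), a wide interval, since the cluster held only 192 and 134 cells, and within the common UMI quartiles the log2 ratio was -0.070. It took opposite signs below and above the pooled UMI median of T cells, at -0.69 (-1.21 to -0.17) up to it and 1.31 (0.32 to 2.38) above it. Per 100 proliferating T cells, a cluster led by histone genes and by genes of cell division such as Birc5, Treg cells numbered 57.3 and 67.5, at -0.24 (-0.55 to 0.076). Which of those dividing cells are Treg cells cannot be told from the cluster name.

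Treg cells carried fewer UMIs in Cyp51-KO tumors. The median Treg cell had 2686 UMIs in Cyp51-KO tumors (2364 to 2947, exact interval from the ordered cells) and 4947 in the sg-Ctrl group (4447 to 5387), a log2 ratio of -0.88. Between the 10th and 90th percentile they ran from 1207 to 7697 UMIs in Cyp51-KO and from 2467 to 12534 in the sg-Ctrl group. The shift was present at both ends of the distribution, as the curves of UMIs per cell show.

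This shift was not particular to Treg cells. All 8 T cell clusters had a lower median in Cyp51-KO tumors, with log2 ratios from -1.18 in Th1-like cells to -0.48 in proliferating T cells. Over all T cells the medians were 3798 and 7071.5 UMIs (-0.90). The median Treg cell stood at 70.7% of the T cell median of its own group in Cyp51-KO and at 70.0% in the sg-Ctrl group. Relative to the median of all T cells of the same group, Treg cells included, the depth of Treg cells was thus close in both. By rank among those T cells, the median Treg cell stood at percentile 32.1 in Cyp51-KO and 27.6 in the sg-Ctrl group. Th1-like cells had fewer UMIs than Treg cells in both groups, at 1860 and 4214.5, whereas the medians of Th17 cells, 2519 and 5453.5, had intervals that overlapped those of Treg cells in both groups.

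**Figure D2:**
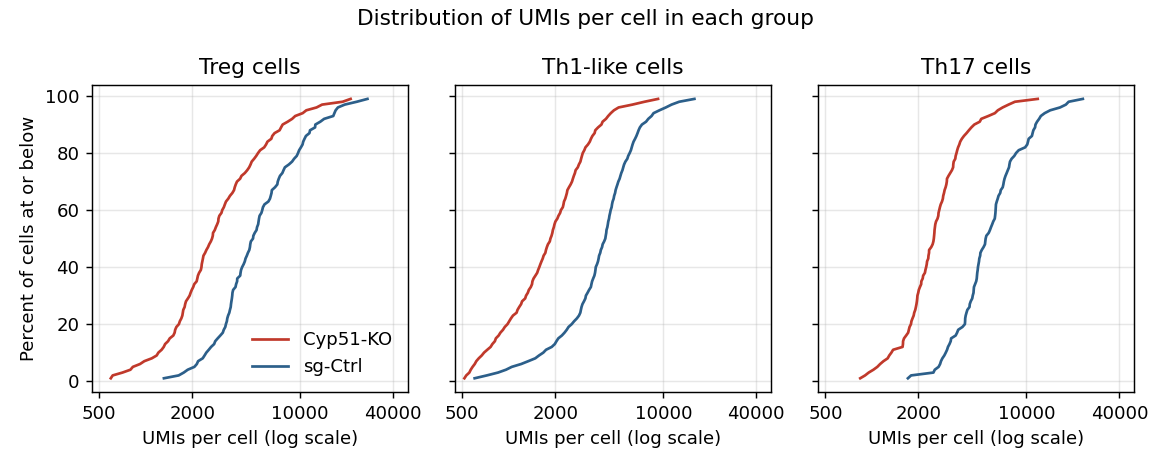
Percent of Treg, Th1-like and Th17 cells at or below each number of UMIs per cell (log scale), drawn at the percentiles from 1 to 99, in Cyp51-KO (red) and sg-Ctrl (blue) tumors. The Cyp51-KO curve lies to the left in each cluster, and the Treg curves reach 90th percentiles of 7697 and 12534 UMIs.

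Treg cells had a long upper tail of UMIs. Their 90th percentile was 2.87 times the median in Cyp51-KO and 2.53 times the median in the sg-Ctrl group, the highest of the 8 clusters in each group. For HSP+ CD8+ T cells this was 2.85 and 2.27 times, and for Th1-like cells 2.14 and 1.73 times. From the 10th to the 90th percentile HSP+ CD8+ T cells spread more widely than Treg cells in Cyp51-KO tumors, 6.98 against 6.37 times. More than 10000 UMIs were found in 20 Treg cells of Cyp51-KO tumors, 6.56% (4.05 to 9.95%), and in 49 of sg-Ctrl tumors, 18.7% (14.2 to 24.0%). In Th1-like cells the same bound was passed by 0.743% and 4.49%, in Temra cells by 2.11% and 11.8%, and in Th17 cells by 1.56% and 17.9%. Th17 cells of the sg-Ctrl group thus came close to Treg cells on this measure. Other clusters passed the bound more often. In Cyp51-KO the 90th percentile was 10488 UMIs in HSP+, 11649.5 in exhausted and 18918 in effector CD8+ T cells, and 22837.5 in proliferating T cells. In the sg-Ctrl group the medians of effector CD8+ and proliferating T cells, 11833 and 17037 UMIs, already lay above it.

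Genes detected followed UMIs closely among Treg cells (Spearman's rho across cells 0.99 and 0.97), so the cells chosen for high UMIs also had more genes. Their median was 3555.5 genes with Cyp51-KO and 3660 in the sg-Ctrl group, against 1216 and 1812 in the Treg cells with fewer UMIs. Their mitochondrial percentage differed little from that of the other Treg cells, at 0.700% against 0.789% in Cyp51-KO tumors and 1.06% against 0.979% in the sg-Ctrl group. Their gene content and doublets among them were not tested, since the table holds no gene levels and no doublet score.

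At the other end, 22 Treg cells of Cyp51-KO tumors had under 1000 UMIs, 7.21% (4.58 to 10.7%), against 2 of sg-Ctrl tumors, 0.763% (0.0926 to 2.73%). Of Th1-like cells, 20.8% and 4.49% lay under this bound. Cells under 500 UMIs had been removed by the authors, and the Treg cells with the fewest UMIs that remained had 508 and 552.

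The number of genes detected followed the UMIs. The median Treg cell had 1261 genes in Cyp51-KO tumors (1173 to 1361) and 1950 in the sg-Ctrl group (1867 to 2079), a log2 ratio of -0.63. All 8 T cell clusters were lower on this measure too, from -0.85 in Th17 cells to -0.39 in proliferating T cells.

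At like numbers of UMIs, Treg cells of Cyp51-KO tumors still had somewhat fewer genes. Treg cells of both groups were placed in 5 bins of equal size by UMIs. In the middle bin, with 41 and 72 cells of 3133 to 4525 UMIs, the median was 1550 genes in Cyp51-KO and 1675.5 in the sg-Ctrl group, although the median UMIs were slightly higher in Cyp51-KO tumors (3723 against 3638.5). In the next bin it was 1994 against 2114.5 genes, at 5388 and 5432 UMIs. Cyp51-KO tumors had fewer genes in 5 of 5 bins, with log2 ratios from -0.21 to -0.085 and a weighted mean of -0.13. The lowest and the highest bin differed also in UMIs, by log2 ratios of -0.15 and -0.069.

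All 8 T cell clusters had a weighted mean below 0 on this measure, from -0.14 in Th17 cells to -0.082 in HSP+ CD8+ T cells. The value of Treg cells lay inside that range. By bins, Th1-like cells had fewer genes in Cyp51-KO tumors in 4 of 5, with a log2 ratio of 0.14 in the other, and HSP+ CD8+ T cells in 3 of 5, while the other clusters did in 5 of 5. Tumors, sorts and libraries cannot be told apart here.

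**Figure D3:**
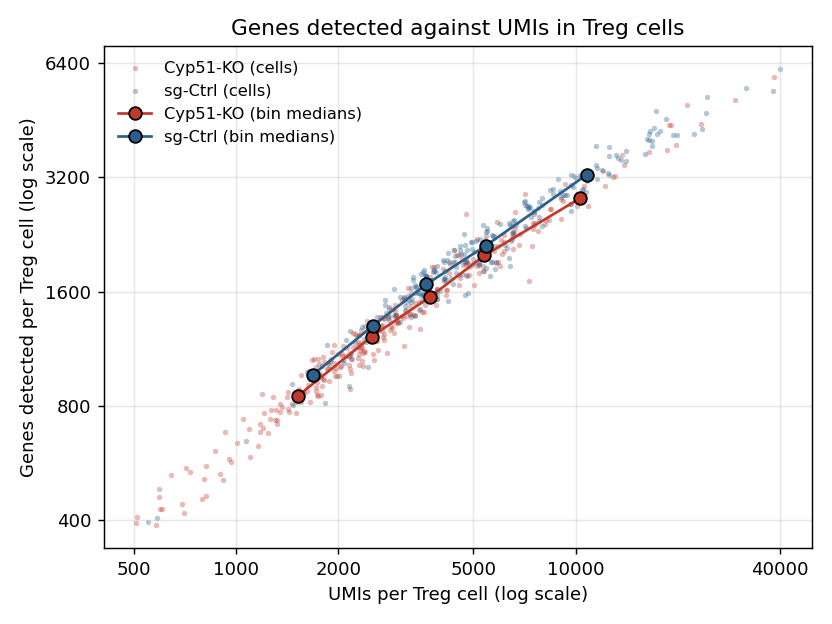
Genes detected against UMIs in each Treg cell (small points, both axes log scale) of Cyp51-KO (red) and sg-Ctrl (blue) tumors, with the medians of 5 UMI bins as large points. The Cyp51-KO medians lie below the sg-Ctrl medians at like UMIs, for example 1550 against 1675.5 genes in the middle bin.

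Mitochondrial UMIs, a sign of stressed or broken cells when high, were a small part in Treg cells. Their median percentage was 0.778% in Cyp51-KO tumors (0.719 to 0.822%) and 0.997% in the sg-Ctrl group (0.933 to 1.05%), a log2 ratio of -0.36. The percentage was lower in Cyp51-KO tumors in 5 of 5 UMI bins of Treg cells, by least in the middle bin (0.847% against 0.853%). It was also lower in all 8 T cell clusters, from -0.78 in HSP+ CD8+ T cells to -0.25 in Th1-like cells. Th1-like cells had the highest medians of the T cell clusters, 1.23% and 1.46%, with intervals above those of Treg cells in both groups. Only 6 and 4 Treg cells exceeded 2.5%. Cells with high mitochondrial percentages had been removed by the authors, and the highest value left in any cell of the series was 4.98%.

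Because UMIs per cell differed between the groups, the share of Treg cells was also read against UMIs. Treg cells were concentrated among T cells with few UMIs. In the quartile of T cells with the fewest UMIs of each group, Treg cells were 10.9% in Cyp51-KO (9.14 to 12.9%) and 12.3% in the sg-Ctrl group (10.4 to 14.5%). In the quartile with the most UMIs they were 3.40% (2.42 to 4.64%) and 3.85% (2.75 to 5.23%). The decline was thus present in both groups. In the second quartile the share was 7.77% (6.27 to 9.50%) against 5.34% (4.04 to 6.91%), and in the third 5.19% against 4.35%. The binomial intervals of the groups overlapped in all 4 quartiles, although the interval of the log2 ratio in the second quartile, 0.58, ran from 0.055 to 1.11 and did not include 0. These quartiles set cells of unlike UMIs side by side. The lowest ran from 501 to 2290 UMIs in Cyp51-KO and from 504 to 4731 in the sg-Ctrl group.

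With the same UMI limits for both groups the picture differed. Of 10 bins of all T cells, the share of Treg cells was lower in Cyp51-KO tumors in 7 and higher in 3. The intervals lay apart in 2 bins. Between 3524 and 4449 UMIs, 25 of 485 T cells of Cyp51-KO tumors were Treg cells, 5.15% (3.36 to 7.52%), against 48 of 367 in the sg-Ctrl group, 13.1% (9.80 to 17.0%). In the bin below it the shares were 7.08% (5.17 to 9.42%) and 14.3% (10.2 to 19.3%). Cells of the same UMIs ranked higher among the T cells of Cyp51-KO tumors (median 3798 UMIs) than among those of the sg-Ctrl group (7071.5), so these bins set cells from different parts of the distributions side by side.

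**Figure D4:**
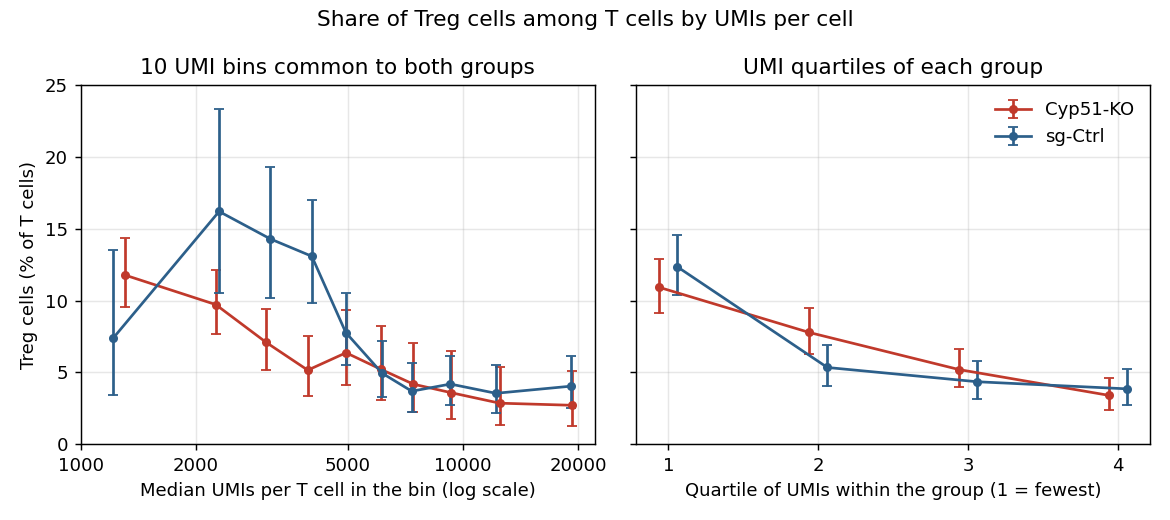
Treg cells as a percentage of T cells in 10 UMI bins common to both groups (left, plotted against UMIs per cell, log scale) and in the UMI quartiles of each group (right), in Cyp51-KO (red) and sg-Ctrl (blue) tumors, with exact 95% binomial intervals. The groups lie apart in 2 of the common bins (5.15% against 13.1% and 7.08% against 14.3%) and overlap in all 4 quartiles.

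Taken as RNA and not as cells, Treg cells supplied 4.70% of all UMIs of T cells in Cyp51-KO tumors and 5.003% in the sg-Ctrl group. Both values lie below their shares of T cell numbers, 6.82% and 6.47%. Relative to cells outside the T cell compartment, there were 24.3 Treg cells per 100 NK cells in Cyp51-KO (21.4 to 27.6) and 26.4 in the sg-Ctrl group (23.0 to 30.3), with overlapping intervals. Per 100 myeloid cells there were 15.7 and 21.8, a log2 ratio of -0.48 (-0.74 to -0.21). NK and myeloid cells entered the mix through the bulk CD45+ sort, whereas T cells entered also through the CD3+ sort, so these ratios describe the sequenced mix.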

How the data were processed

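The authors made the table with Cell Ranger 7.0 against GRCm38 and with Seurat 4.2.0 in R 4.2.0 (paper and submitters' processing notes): cells were removed by genes, UMIs and mitochondrial percent, samples were merged and normalized with SCTransform, and clusters were named. The sources used say nothing of a doublet step by the authors, and none was run here. The deposited table holds raw UMI counts per cell, genes detected per cell and, computed by the authors, the mitochondrial percent of UMIs. The normalized totals were not used.

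The table gives each cell a group, CYP51KO or WT, taken here as Cyp51-KO and sg-Ctrl, and cell names begin as the sample titles of that group do. No label spells out which titles are the knockout. Shares carry exact binomial (Clopper-Pearson) intervals, group ratios are log2 odds ratios with the exact conditional interval, and intervals of medians come from order statistics. No test was made. Genes at like UMIs are medians in 5 bins, each weighted by its smaller cell number. The code was checked on simulated data. No gene level was available, so genes are named only as markers or background. Clusters, references and comparisons were chosen with earlier results of these data known. Alternatives are given in the closing section. Python 3.11.15, pandas 2.3.3, NumPy 2.4.6, SciPy 1.17.1 and Matplotlib 3.10.9 were used. The counting error is that of 305 and 262 Treg cells, and the spread between tumors, sorts or libraries could not be estimated.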

Additional observations from a re-analysis of the deposited data

How the results depend on the processing

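No paired analysis was possible because cells are tied to a group and not to a library, and for the same reason no library could be left out in turn. Of 44 alternatives, 34 stayed inside the interval of the reported value, among them all those for UMIs, genes and mitochondrial percent per Treg cell and for genes at like UMIs, where the interval is the range over bins. The other 10 concern ratios of cell numbers. The log2 ratio of the Treg share of T cells, 0.081 as reported, was -0.34 (-0.58 to -0.088) over all cells. It was -0.48 within UMI quartiles of all T cells and -0.45 (-0.76 to -0.13) among T cells up to the pooled UMI median. The Treg to CD8+ ratio, 0.16 as reported, was -0.67 within those quartiles and -0.70 (-1.02 to -0.37) up to that median. Against exhausted and effector CD8+ T cells alone it was 0.57 (0.29 to 0.84) and -0.75 (-1.09 to -0.40). The ratio to Th1-like cells, 0.058 as reported, was 0.79 within the quartiles and 1.63 (0.84 to 2.45) above the median. That to Th17 cells, -0.30 as reported, was 1.31 (0.32 to 2.38) above the median. Up to the median the ratio to Th17 cells was -0.69 (-1.21 to -0.17). It is among the values that stayed inside the reported interval (-0.71 to 0.11). Within UMI quartiles of each group, chosen after the data were seen, the 4 ratios were 0.082, 0.17, 0.068 and -0.20, in the same order. Each such quartile holds a like part of the T cells of both groups, so values near the reported ones follow from the cut. These 4, counted among the 34, do not match UMIs between the groups and say nothing about depth. Above the median the log2 ratio of the Treg share was -0.14 (-0.64 to 0.34), and in the third of the common quartiles alone it was 0.26 (-0.41 to 0.91). Up to the median the ratio to Th1-like cells was 0.17 (-0.17 to 0.52). The ratios to CD8+ and Th17 cells changed sign between T cells up to the median and above it (0.082, -0.42 to 0.57, for CD8+ above it). Depth and knockout cannot be told apart here.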
